A study of Mus musculus with 96 samples.

Results

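The lipogenic target genes of SREBP-1c and ChREBP were followed around the clock in mice that had been deprived of sleep and in undisturbed mice. They comprise 9 of the 54833 features in the count table, chosen by name as the rows whose Ensembl identifier carries the symbol Scd1, Pnpla3, Fasn, Acaca, Acly, Elovl6, Srebf1, Thrsp or Me1 in GENCODE M21. Libraries of total RNA came from liver, kidney, forebrain and cerebellum of wild-type C57BL/6 mice, which per the study's methods were male and 6 to 8 weeks old. The control group (CON) was left alone. The sleep-deprived group (SD) was kept moving by a rotating drum, with feed and water in reach, during the hours in which mice mostly sleep, and this lasted 10 h. Sampling followed in constant darkness, 4 h apart, at CT4, CT8, CT12, CT16, CT20 and CT24 (CT, circadian time), with 2 libraries for each tissue, condition and time, or 96 in all. The labels number the replicates without tying them to separate animals, so the p-values below measure the spread between these libraries.

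The liver turns surplus carbohydrate into fatty acids by de novo lipogenesis. The transcription factor SREBP-1c carries the insulin signal and ChREBP the glucose signal, and both raise the genes of this pathway after feeding. The pathway makes cytosolic acetyl-CoA from citrate (Acly), carboxylates it to malonyl-CoA (Acaca), builds palmitate (Fasn), and elongates (Elovl6) and desaturates (Scd1) the product, with NADPH from malic enzyme among other sources (Me1). Srebf1 encodes SREBP-1 itself and is raised by its own product, Thrsp encodes a small protein that promotes lipogenesis, and Pnpla3 encodes a lipid droplet protein whose gene is a sensitive SREBP-1c and ChREBP target.

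The genes lie apart in the genome (GRCm38), except that 4 are on chromosome 11. Scd1 (ENSMUSG00000037071) spans chr19:44394455-44407879 and Pnpla3 (ENSMUSG00000041653) spans chr15:84167837-84187236. On chromosome 11, Fasn spans chr11:120805846-120824547, Acaca chr11:84129672-84401651, Acly chr11:100476353-100528000 and Srebf1 chr11:60199089-60222581. Elovl6 spans chr3:129532355-129638495, Thrsp chr7:97412938-97417730 and Me1 chr9:86581371-86695953. Exons of Elovl6 and Me1 overlap antisense genes, Gm35986 and A330041J22Rik, which the counting by strand keeps apart.

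Depth lay between 24.8 M and 58.5 M counts per library over the series and between 32.0 M and 48.9 M in the liver. Levels are given as CPM, the count scaled to the library's total in M counts, so that 1 CPM in the liver rests on at least 32.0 counts. The labels of the kidney disagree with each other in 20 of 24 libraries, whose titles set the groups here. Of 8 hepatocyte markers, 7 passed the filter in the liver, with Alb at a mean of 63775 CPM in CON, and Serpina1c was at 0.0073 CPM. Of 7 adipocyte markers, Adipoq and Plin1 stayed at or below 0.329 CPM in the liver and Lep at 0, while Cfd lay between 2.99 and 6.31 CPM and Plin4 between 4.11 and 13.2 CPM.

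Averaged over the 6 times, Scd1 and Pnpla3 were lower in the liver after sleep deprivation, and the other 7 genes did not pass the test. Scd1, the desaturase that makes oleate and palmitoleate, was the most abundant of the 9 genes per kilobase of exon. It lay between 4435 and 10645 CPM in the 12 CON livers, with a median of 6318, and between 3447 and 6516 CPM in the 12 SD livers, with a median of 4111. The ranges overlap. The mean of the SD libraries was below that of the CON libraries at 6 of 6 times, as it was for 21.8% of all genes tested. The fitted log2 fold change was -0.46 ± 0.13 (SE), with an adjusted p of 0.0153 in the quasi-likelihood test of edgeR.

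Pnpla3 showed a larger change at a far lower level. It ran from 0.892 to 29.3 CPM in CON livers, with a median of 5.76, and from 0.922 to 9.10 CPM in SD livers, with a median of 2.56. Its mean was lower in SD at 6 of 6 times as well. Of all genes tested 21.8% had a lower mean CPM in SD at every time, so the share among the lipogenic genes is near this background. The log2 fold change was -1.33 ± 0.31 (SE, adjusted p = 0.00427, edgeR). An exon of the noncoding gene Gm49513 lies over Pnpla3 on the same strand, so that some reads of either gene may not have been assigned.

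Fasn and Me1 came next in size without passing the test. Fasn, the synthase of palmitate, had a log2 fold change of -0.37 ± 0.14 (SE, adjusted p = 0.0734), from 1579 ± 544 CPM in CON to 1138 ± 473 CPM in SD (mean ± s.d., n = 12). Me1, which supplies NADPH, had -0.31 ± 0.13 (SE, adjusted p = 0.103), from 252 ± 69.2 to 183 ± 31.4 CPM (mean ± s.d., n = 12). Both values come from the same edgeR fit. The remaining fold changes were -0.16 for Acly, -0.13 for Srebf1, -0.10 for Acaca, -0.10 for Elovl6 and 0.076 for Thrsp, on the log2 scale, with adjusted p from 0.339 upward.

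**Figure D1:**
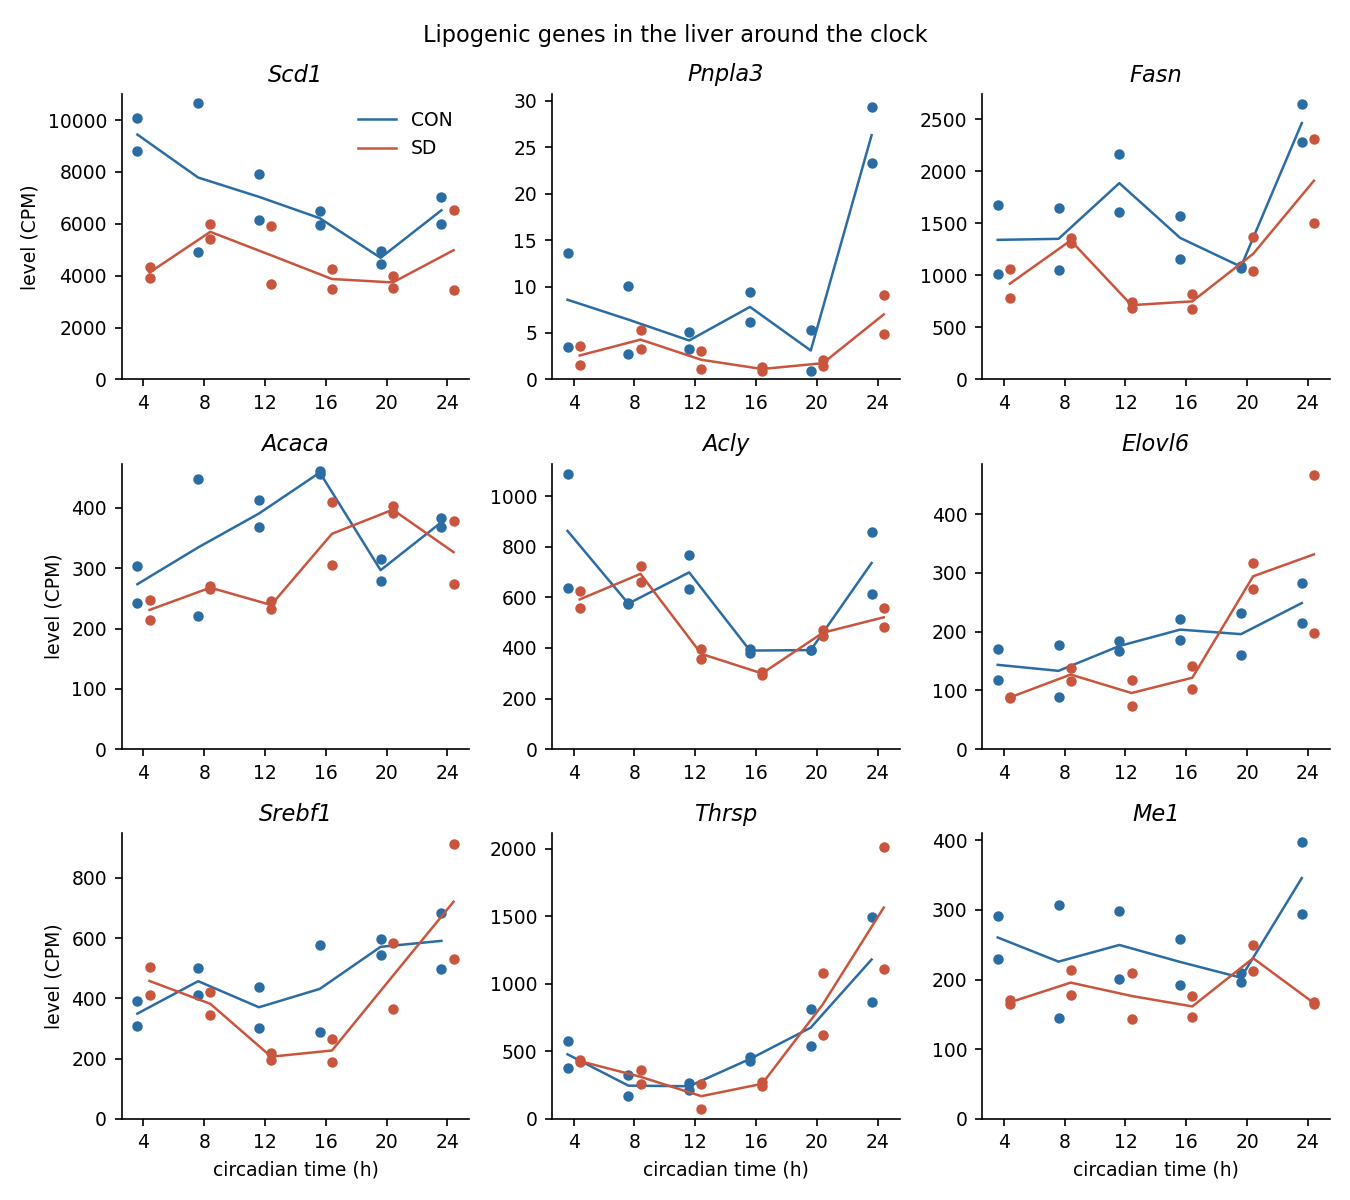
Levels of the 9 lipogenic genes in the liver in CPM (vertical axes, starting at 0) against circadian time in hours. Each point is 1 library, lines join the means of 2 libraries, and CON (blue) and SD (red) are drawn side by side. Scd1 and Pnpla3 have the lower SD mean at 6 of 6 times, as do 21.8% of all genes tested. Thrsp climbs to CT24 in both conditions.

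Thus 2 of the 9 genes were called lower and 0 higher, where 8.8% of the 19708 genes tested in the liver were called lower and 9.42% higher, or 18.2% in all. The median log2 fold change of the 9 genes was -0.16, with 8 of 9 below 0, and that of all genes tested was 0.0053. Scaling the libraries by their totals alone moved the median of all genes to -0.13, and 3766 of the 19708 genes were then called lower and 358 higher. Under that scaling Fasn and Me1 passed the test too and Thrsp turned to -0.061. Kupffer cell and macrophage markers fell in the same livers, 4 of 4 called, from a summed 880 ± 177 CPM in CON to 572 ± 98.2 CPM in SD (mean ± s.d., n = 12). Of 7 hepatocyte markers tested 5 were called higher, among them Alb by 0.24 and Cyp2e1 by 0.51 on the log2 scale, but only 2 under library totals. Their summed level, 90221 to 117268 CPM in CON and 94817 to 117103 CPM in SD, overlapped. The part of these shifts in the values above was not tested, and in whole tissue fewer cells of a type and less RNA per cell cannot be told apart.

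**Figure D2:**
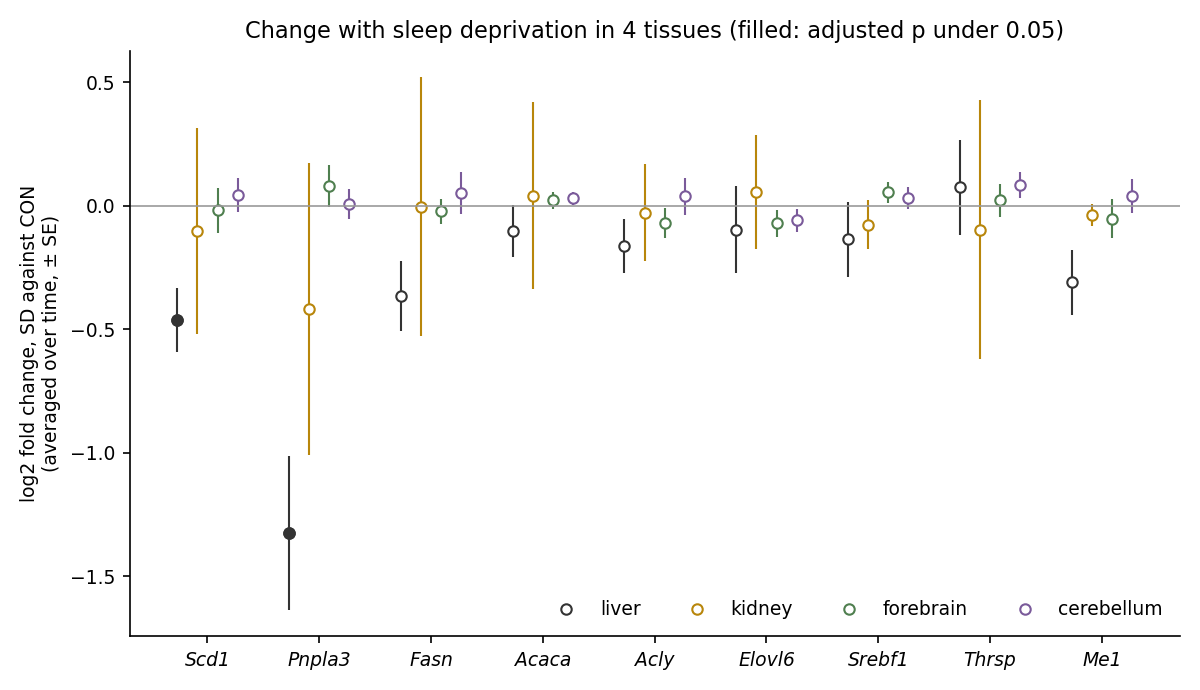
Log2 fold change between SD and CON averaged over time (vertical axis, ± SE) for each of the 9 genes in liver, kidney, forebrain and cerebellum, 24 libraries per tissue. Filled points passed an adjusted p of 0.05, which only Scd1 and Pnpla3 in the liver did; the kidney bars are the widest for most genes.

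Single times rest on 2 libraries per condition, and the liver was examined at each of them. At CT16 both SD libraries lay below both CON libraries for 9 of 9 genes, against 24.1% of all genes tested, and at CT12 for 7 of 9, against 42.8%, all but Thrsp and Me1. No gene lay above at those times, against 11.6% and 7.92% of all genes. At CT4 Scd1, Acly, Elovl6 and Me1 lay below, against 34.8% of all genes, and Srebf1 above, against 10.7%. At CT8 none of the 9 lay below, against 32.8%, and Acly above, against 11.3%. The 2 CON libraries at CT8 were far apart for several genes. Their ratio, higher over lower, ran from 1.01 for Acly to 3.63 for Pnpla3, with 2.16 for Scd1. The part of this spread in the count at CT8 was not tested. At CT24 Pnpla3, Acly and Me1 lay below, against 35.4%, and none above, against 11.4%.

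At CT20 the picture differed, with both SD libraries above both CON libraries for Acaca, Acly, Elovl6 and Me1, or 4 of 9 against 12.5% of all genes, and below for Scd1 alone, against 32.5%. The counts at CT4, CT8 and CT24 are near or under their background.

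The largest single differences fell at different times in different genes. Scd1 stood at 10081 and 8802 CPM in CON at CT4 and at 3912 and 4332 CPM in SD. Fasn stood at 2161 and 1609 CPM in CON at CT12 and at 683 and 743 CPM in SD. Neither gene's groups overlap at those times.

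Pnpla3 had separate groups at CT12, CT16 and CT24. It measured 6.19 and 9.42 CPM in CON at CT16 and 1.31 and 0.922 CPM in SD. It measured 23.3 and 29.3 CPM in CON at CT24 and 4.90 and 9.10 CPM in SD. Me1 also had separate groups at CT24, with 294 and 397 CPM in CON and 167 and 165 CPM in SD.

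Acly, the citrate lyase at the entry to the pathway, differed in both directions. It was at 766 and 631 CPM in CON at CT12 and at 357 and 395 CPM in SD. At CT20 it was at 390 and 393 CPM in CON and at 471 and 449 CPM in SD. The CON and SD libraries are thus apart at both times, in opposite directions.

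In these tests 0 of the 54 pairs of gene and time passed the adjusted threshold in edgeR, where 0.0101% of all genes passed at CT4, 0.416% at CT8, 0.238% at CT24 and 0% at CT12, CT16 and CT20. At an unadjusted p under 0.05 there were 13 pairs, 12 lower in SD and 1 higher, against 10.7% of all pairs of gene and time. The largest of the log2 fold changes among them was -2.67 ± 0.79 for Pnpla3 at CT16 (SE, adjusted p = 0.181, edgeR). Fasn at CT12 had the lowest p, with -1.205 ± 0.26 (SE, adjusted p = 0.387, edgeR). The 1 higher pair was Acaca at CT20, with 0.51 ± 0.23 (SE, adjusted p = 0.593, edgeR). Tested over the 6 times together, 0 of 9 genes passed in edgeR, where 3.56% of all genes did, and 6 of 9 had an unadjusted p under 0.05, against 17% of all genes. DESeq2 called 3 of the 54 pairs, Fasn and Acly at CT12 and Me1 at CT24, where it called 28 and 472 of 19708 genes. Over the 6 times together it called Acly, Fasn and Pnpla3, and 2017 of 19708 genes.

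The 24 h profiles of the liver had their peak at CT24 for most of these genes. In CON the highest mean fell at CT24 for Pnpla3, Fasn, Elovl6, Srebf1, Thrsp and Me1, at CT4 for Scd1 and Acly, and at CT16 for Acaca. In SD it fell at CT24 for Pnpla3, Fasn, Elovl6, Srebf1 and Thrsp, at CT8 for Scd1 and Acly, and at CT20 for Acaca and Me1.

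Thrsp had the steepest course among the abundant genes. In CON its mean rose from 241 CPM at CT12 to 1180 CPM at CT24, a ratio of 4.89, with 1492 and 867 CPM in the libraries at CT24. In SD it rose from 168 CPM at CT12 to 1564 CPM at CT24, a ratio of 9.32, with 1112 and 2016 CPM at CT24. The groups overlap at CT24, where the replicates of each condition were far apart.

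Srebf1 had a wider range of means over the day in SD than in CON. The SD libraries held 194 and 218 CPM at CT12 and 266 and 187 CPM at CT16, and 530 and 911 CPM at CT24. The CON libraries held 438 and 302 CPM at CT12, 576 and 287 CPM at CT16 and 683 and 499 CPM at CT24. The ratio of the highest to the lowest mean was 3.49 in SD and 1.69 in CON. The counts pool the transcripts of all starts of the gene, SREBP-1a and SREBP-1c alike, and its exons overlap Rai1 on the other strand and Mir6922 on its own.

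Rhythm was called with JTK_CYCLE, a rank test against 24 h cosines, over the 12 libraries of a condition. In CON livers 0 of 9 genes passed, with the lowest adjusted p at 0.133 for Thrsp, and 0.147% of all genes passed. In SD livers Thrsp passed with an adjusted p of 0.0426 in JTK_CYCLE, as did 1.76% of all genes, and it missed the threshold when libraries were scaled by TMM or genes of low count were kept. A cosine fit in edgeR called more: Thrsp and Acly in CON, 2 of 9 against 9.13% of all genes, and Fasn, Acaca, Acly, Elovl6, Srebf1 and Thrsp in SD, 6 of 9 against 12.9%.

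Whether the 24 h course differed between conditions was tested directly. For 0 of 9 genes did the cosine and sine terms differ at an adjusted p under 0.05 in edgeR, and 0% of the 19708 genes tested did. Srebf1 had an unadjusted p of 0.00871 (adjusted p = 0.9997, edgeR), the only one of the 9 under 0.05. A rhythm called in SD and not in CON is therefore not shown to differ between them.

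The genes around lipogenesis were examined from 5 lists of the pathway. Counts of the main fit are to be read against the 9.42% of all genes called higher and the 8.8% called lower. Library totals alone called 358 of 19708 genes higher and 3766 lower. DESeq2 called 2301 higher and 1942 lower, and the fit without the filter on low counts 1745 and 1996 of 32589. Of 12 regulators tested, 3 were called higher and 1 lower, the latter near the share of all genes. With library totals alone 0 were higher and 2 lower. Scap, the escort of SREBP, was higher by 0.24 and Rxra, a partner of LXR, by 0.18 on the log2 scale, and Mbtps1, a protease that releases SREBP, by 0.11. Scaling by library totals alone lost all 3 and turned Mbtps1 to -0.027, and Mbtps1 also missed the threshold in 15 of 24 fits that left out 1 library. Mlxip, the paralog of ChREBP also called MondoA, was lower by -0.25 ± 0.07 (SE, adjusted p = 0.0100, edgeR), and Mlxipl, which encodes ChREBP, had 0.05 ± 0.07 (SE, adjusted p = 0.691, edgeR).

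Of 13 genes that supply carbon or NADPH, 3 were lower and 1 higher, the latter near the share of all genes. Library totals alone gave 5 lower and 1 higher, and DESeq2 4 and 1. G6pdx, the first enzyme of the pentose phosphate pathway and a source of NADPH, went from 17.4 ± 2.52 CPM in CON to 10.9 ± 1.40 CPM in SD (mean ± s.d., n = 12), a log2 fold change of -0.54 ± 0.08 (SE, adjusted p = 7.17e-05, edgeR). Pgd, its other NADPH enzyme, changed by -0.41 and the transketolase Tkt by -0.21, and Taldo1, the transaldolase of the same pathway, had 0.041 ± 0.05 (SE, adjusted p = 0.609, edgeR). The higher gene was the glucose transporter Slc2a2, by 0.39 ± 0.09 (SE, adjusted p = 0.00306, edgeR), which was also called under library totals.

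Of 13 further genes of fatty acid synthesis, 1 was called lower and 2 higher, the former near the share of all genes. Scd2, the desaturase paralog of Scd1, was lower by -0.44 ± 0.07 (SE, adjusted p = 0.000162, edgeR). It lay at 27.8 CPM in CON and 18.7 CPM in SD, and reads that fit both paralogs were removed by the mapping quality filter. Elovl2 and Fads2, which work on polyunsaturated fatty acids, were higher by 0.24 and 0.22 and missed the threshold under library totals. Of 13 genes tested for triglycerides and lipoproteins, 4 were higher and 0 lower, against 9.42% and 8.8% of all genes. The higher genes were the droplet protein Plin5 by 0.38, Agpat2 by 0.25, Mttp by 0.24 and Dgat2 by 0.21 on the log2 scale. Under library totals Plin5 and Agpat2 held and Mttp and Dgat2 did not. Of 15 genes of cholesterol synthesis and uptake, which answer to SREBP-2, 0 passed in edgeR with the filter on low counts. An unadjusted p under 0.05 was found for 1 of them, Stard4 (0.0115, edgeR), and for 6081 of all 19708 genes. Without the filter 1 was called higher and 3 lower, and DESeq2 called 1 higher.

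The median log2 fold changes of these lists were 0.06 for the regulators, 0.04 for supply, 0.08 for fatty acid synthesis, 0.18 for triglycerides and -0.03 for cholesterol, beside 0.0053 for all genes and -0.16 for the 9 genes. Markers of macrophages fell in the same libraries, as given above, and their part in the lower G6pdx, Pgd and Scd2 was not tested.

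**Figure D3:**
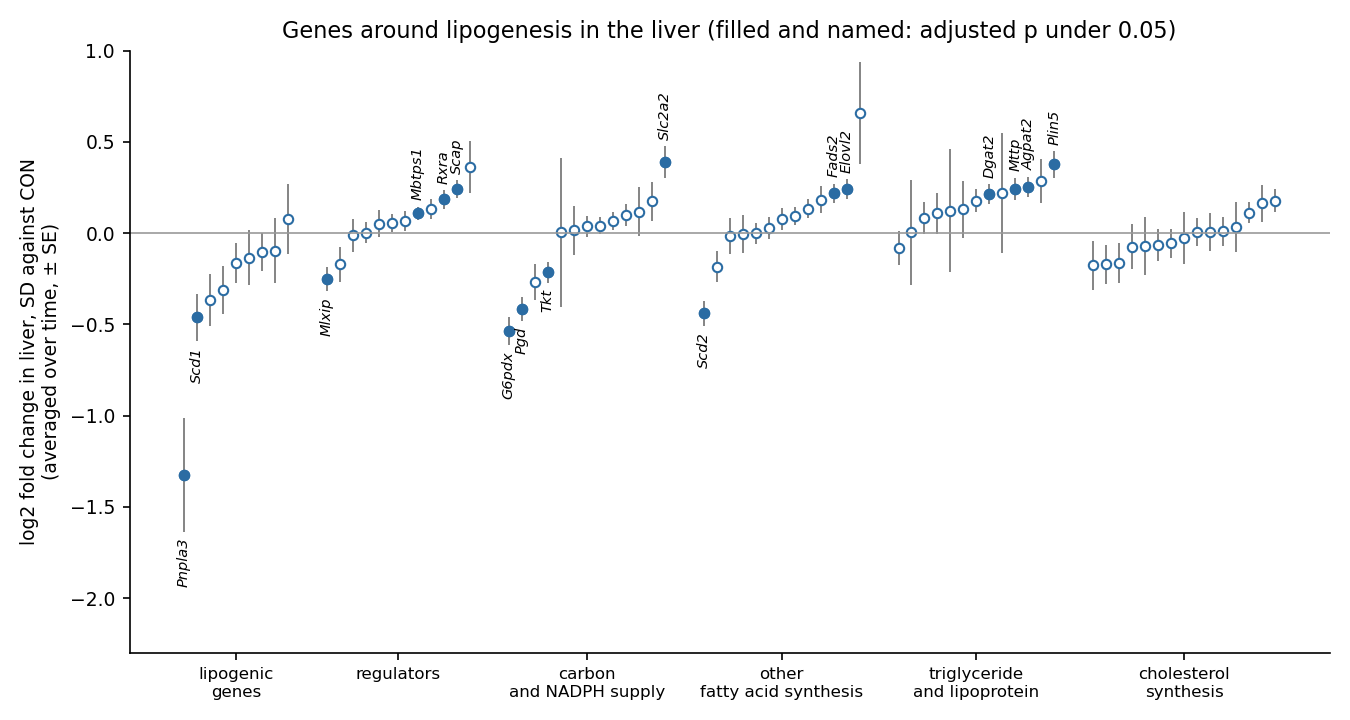
Log2 fold change in the liver between SD and CON averaged over time (vertical axis, ± SE) for the 9 lipogenic genes and the 5 lists around them, sorted within each list. Filled, named points passed an adjusted p of 0.05; all named genes of the triglyceride list lie above 0, G6pdx, Pgd and Tkt in the supply list lie below 0, and no gene of the cholesterol list is named.

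The levels of the 9 genes were correlated from one liver to the next. Over the 24 liver libraries the 36 pairs of genes had a median Pearson r of 0.49 in log2 CPM, and 35 of 36 were positive. With the mean of each group of 2 subtracted, so that condition and time drop out, the median r was 0.52 with 35 of 36 positive. Over all libraries the closest pairs were Elovl6 with Thrsp (r = 0.83), Fasn with Pnpla3 (r = 0.79) and Srebf1 with Thrsp (r = 0.78), and the negative pair was Acaca with Acly (r = -0.10). With the group means subtracted the closest pairs were Acaca with Scd1 (r = 0.86), Elovl6 with Scd1 (r = 0.84) and Elovl6 with Thrsp (r = 0.84), and the negative pair was Me1 with Srebf1 (r = -0.42). These values describe 24 libraries that share condition, time and scaling. After subtraction the 2 libraries of a group mirror each other, so the 24 values are not independent. No value for pairs of other genes is given for comparison. The same median over all libraries was 0.87 in the kidney, above that of the liver, 0.23 in the cerebellum and 0.069 in the forebrain. In the kidney the 9 genes also correlated with summed adipocyte markers, with r from 0.43 for Me1 to 0.97 for Scd1. The part of this in the kidney median was not tested.

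Outside the 9 genes, those reported here whose liver profile was most like the mean of the 9 standardised profiles were Pikfyve (r = 0.77), Golt1b (r = 0.74), Acsl4 (r = 0.74) and Aacs (r = 0.74), ranked among 11810 protein-coding genes over 24 libraries. Acsl4 encodes an acyl-CoA synthetase and Aacs an acetoacetyl-CoA synthetase. Aacs averaged 186 ± 129 CPM in CON and 134 ± 56.1 CPM in SD (mean ± s.d., n = 12).

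Because their levels correlated, the starts of these genes were read for motif letters. RefSeq windows on GRCm38.p6, each with 250 bases before the start and 50 after it, exist here for 8 of the 9 genes, in 11 windows, and Scd1 is named only. The letters CCAAT are the site of NF-Y, a factor that works beside SREBP. They occurred on either strand in 7 of the 11 windows, from 6 of these 8 genes, against 37.4% of all 32851 windows. The letters TCACNCCAC, a form of the sterol response element, occurred in 0 of the 11 windows and in 1.24% of all windows, and the E-box CACGTG in 0 of the 11 and in 7.15%. A match or its absence describes only these letters in these windows. The windows of Fasn, Thrsp and Pnpla3 are shown because Fasn and Pnpla3 had the lowest log2 fold changes at single times and Thrsp had the steepest course among the abundant genes, with each CCAAT or its reverse complement ATTGG in capitals. Fasn holds 3 matches, of which 2 overlap, Thrsp 2 and Pnpla3 1.
Fasn (chr11:120824498-120824797, - strand): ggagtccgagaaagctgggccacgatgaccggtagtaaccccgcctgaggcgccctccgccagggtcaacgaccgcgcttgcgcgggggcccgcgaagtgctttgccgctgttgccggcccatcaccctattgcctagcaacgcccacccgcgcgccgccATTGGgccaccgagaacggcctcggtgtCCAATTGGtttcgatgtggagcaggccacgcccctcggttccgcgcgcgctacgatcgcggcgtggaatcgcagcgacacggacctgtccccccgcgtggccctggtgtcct
Thrsp (chr7:97417501-97417800, - strand): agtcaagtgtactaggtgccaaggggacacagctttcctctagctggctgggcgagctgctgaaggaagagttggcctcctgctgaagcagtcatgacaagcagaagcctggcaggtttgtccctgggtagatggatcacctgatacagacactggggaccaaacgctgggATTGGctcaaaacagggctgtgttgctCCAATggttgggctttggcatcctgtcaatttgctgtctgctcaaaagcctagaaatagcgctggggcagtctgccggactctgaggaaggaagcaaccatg
Pnpla3 (chr15:84167566-84167865, + strand): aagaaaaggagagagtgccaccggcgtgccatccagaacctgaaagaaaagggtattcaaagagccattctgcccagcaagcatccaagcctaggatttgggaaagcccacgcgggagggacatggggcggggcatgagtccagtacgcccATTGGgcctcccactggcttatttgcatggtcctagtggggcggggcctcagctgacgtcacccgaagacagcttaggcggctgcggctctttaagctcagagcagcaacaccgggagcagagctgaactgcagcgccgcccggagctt

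The tissues differed far more than the conditions. Levels of different genes are set side by side per kilobase of exon, as CPM per kb. In the means of CON libraries 7 of the 9 genes were highest in the liver, Me1 was highest in the kidney and Pnpla3 in the cerebellum. Kidney libraries varied in adipocyte markers, as given below, and the part of this in the kidney's place in the orders was not tested. Of the 54 pairs of tissues over the 9 genes, 46 differed at an adjusted p under 0.05 in edgeR, where the share of all genes was 68.6% between liver and kidney, 85.9% between liver and forebrain, 87.8% between liver and cerebellum, 84.9% between kidney and forebrain, 87.1% between kidney and cerebellum and 70.3% between forebrain and cerebellum.

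Scd1 held 1420 ± 414 CPM per kb in the CON liver, 229 ± 145 in the kidney, 30.1 ± 4.15 in the cerebellum and 29.7 ± 4.29 in the forebrain (mean ± s.d., n = 12 each). Cerebellum and forebrain were not apart beyond their spread (adjusted p = 0.502, edgeR). Thrsp followed a like order, with 248 ± 169 CPM per kb in the liver, 34.7 ± 38.4 in the kidney, 11.9 ± 1.203 in the cerebellum and 5.32 ± 0.62 in the forebrain (mean ± s.d., n = 12 each), and all 6 pairs of tissues differed.

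Fasn and Acly ran liver, kidney, forebrain, cerebellum from high to low, with all 6 pairs apart. Fasn held 144 ± 49.7, 88.9 ± 79.8, 34.1 ± 3.18 and 21.3 ± 3.94 CPM per kb in that order (mean ± s.d., n = 12 each). Acly held 115 ± 40.8, 68.5 ± 32.4, 30.5 ± 4.00 and 21.9 ± 3.42 CPM per kb (mean ± s.d., n = 12 each). Acaca kept the same order of means at 20.8 ± 4.85, 10.7 ± 7.60, 8.37 ± 0.30 and 7.43 ± 0.38 CPM per kb (mean ± s.d., n = 12 each), but kidney and forebrain (adjusted p = 0.143) and forebrain and cerebellum (adjusted p = 0.104, edgeR) were not apart. Kidney and cerebellum were apart for Acaca (adjusted p = 0.00226, edgeR). The median of Acaca was 8.14 CPM per kb in the CON kidney, below the 8.32 in the CON forebrain.

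Srebf1 was at 81.9 ± 22.6 CPM per kb in the liver, 20.4 ± 6.91 in the kidney, 15.0 ± 1.56 in the cerebellum and 10.5 ± 1.33 in the forebrain (mean ± s.d., n = 12 each), all apart. Elovl6 was at 28.5 ± 7.97 CPM per kb in the liver and between 8.67 and 13.8 in the other 3 tissues. Among these 3, neighbours in the order did not differ (adjusted p = 0.0626 and 0.110, edgeR). The kidney was below the cerebellum, with a log2 difference of -0.53 ± 0.14 (SE, adjusted p = 0.000685, edgeR).

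Me1 and Pnpla3 broke the order. Me1 reached 158 ± 7.78 CPM per kb in the kidney against 65.4 ± 17.99 in the liver (mean ± s.d., n = 12 each), 13.4 in the forebrain and 10.6 in the cerebellum, all apart. Pnpla3 reached 16.8 ± 1.898 CPM per kb in the cerebellum, with 7.02 ± 7.21 in the kidney, 6.07 ± 5.65 in the liver and 5.16 ± 1.03 in the forebrain (mean ± s.d., n = 12 each). Kidney, liver and forebrain could not be told apart for Pnpla3 (adjusted p from 0.219 to 0.877, edgeR).

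**Figure D4:**
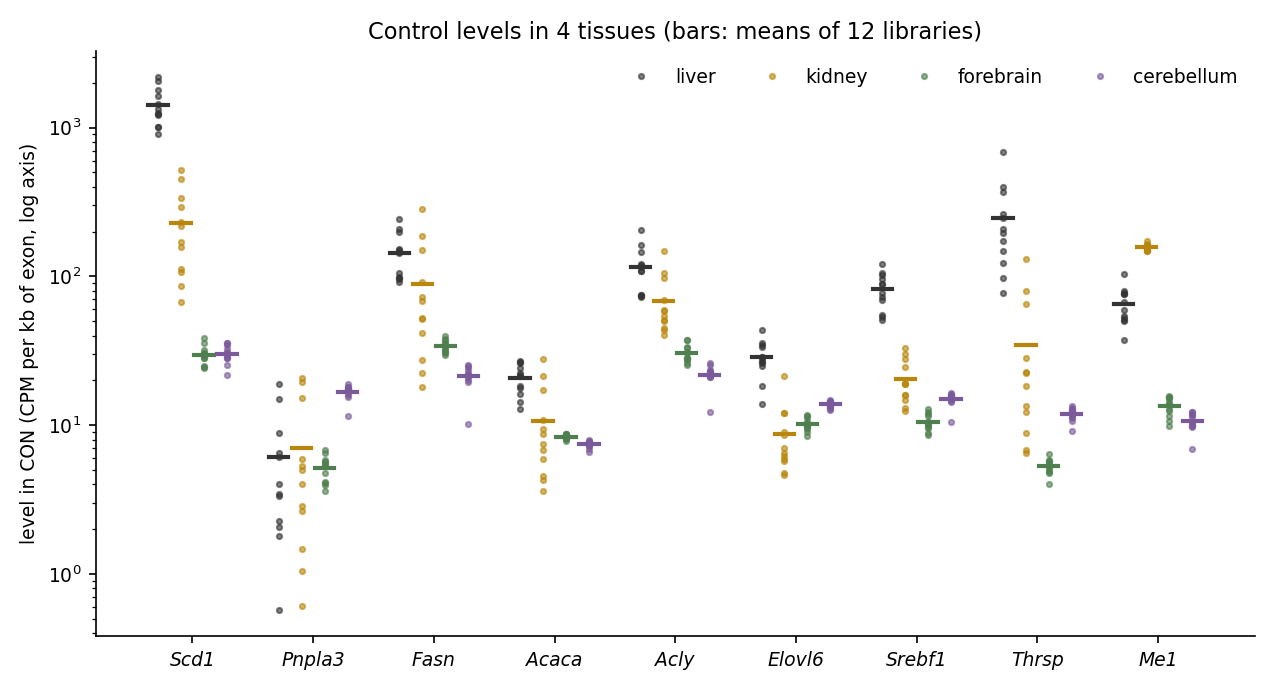
Levels in CON libraries as CPM per kb of exon (vertical log axis) for the 9 genes in 4 tissues; each point is 1 library and each bar the mean of 12. The liver has the highest bar for 7 genes, the kidney for Me1 and the cerebellum for Pnpla3, and the kidney points are the most scattered except for Me1.

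The effect of sleep deprivation was then set against that in the other tissues. Averaged over time, 0 of 9 genes passed in kidney, forebrain or cerebellum in edgeR, where 2.3%, 0.0303% and 0% of all genes passed, and 0 of 9 had an unadjusted p under 0.05 in any of the 3. DESeq2 called 0 of 9 in each as well. The log2 fold changes ran from -0.42 to 0.06 in the kidney, from -0.07 to 0.08 in the forebrain and from -0.06 to 0.08 in the cerebellum. The lowest of these was Pnpla3 in the kidney, at -0.42 ± 0.59 (SE, adjusted p = 0.81, edgeR).

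In the test of the difference itself, over all 96 libraries, 0 of the 27 comparisons of the liver with another tissue passed. Of all genes 3.82%, 6.98% and 3.95% passed against kidney, forebrain and cerebellum. An unadjusted p under 0.05 was found for 3 comparisons, and for 4979, 5689 and 4655 of 27324 genes against the same tissues. The model held no term for tissues that may share a mouse. DESeq2 called 1 comparison, and 2060, 2855 and 1680 of 27324 genes against the same tissues. The closest was Pnpla3, whose log2 fold change in the liver was lower than in the forebrain by a difference of -1.38 ± 0.50 (SE, adjusted p = 0.0759, edgeR) and than in the cerebellum by -1.34 ± 0.49 (SE, adjusted p = 0.115, edgeR). Scd1 differed by -0.42 from the forebrain and -0.51 from the cerebellum, with adjusted p of 0.524 and 0.457. With the 24 kidney libraries left out, a choice made after seeing the data, Pnpla3 passed against the forebrain at -1.41 ± 0.29 (SE, adjusted p = 0.00142) and against the cerebellum at -1.34 ± 0.28 (SE, adjusted p = 0.00285, edgeR), where 4.57% and 3% of all genes passed. Scd1 did not, with adjusted p of 0.0771 and 0.051.

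The kidney libraries varied most, and adipocyte markers varied with them. The 7 markers summed to between 17.8 and 709 CPM over the 24 kidneys, and to between 7.99 and 16.2 CPM over the livers. Adipoq, which encodes adiponectin, ran from 0.665 to 92.1 CPM in the kidney and Plin1, the adipocyte droplet coat, from 0.504 to 121 CPM. Over the same kidneys Scd1 ran from 288 to 2896 CPM, Fasn from 138 to 3100 CPM, Thrsp from 10.2 to 288 CPM and Pnpla3 from 0.739 to 32.2 CPM.

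The 8 kidney libraries with the most adipocyte marker RNA, 294 to 709 CPM, were also the 8 highest for Scd1, Fasn and Acaca. Fasn was at 1002 to 3100 CPM in those 8 and at 138 to 897 CPM in the other 16. For Acly and Elovl6 the highest 8 shared 7 libraries with them, for Pnpla3, Srebf1 and Thrsp 6, and for Me1 3. Me1 stayed between 547 and 692 CPM in all 24 kidneys.

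With the summed adipocyte markers as a covariate, added after seeing the data, 0 of 9 genes passed for sleep deprivation in the kidney in edgeR, where 2.76% of all genes did. The SE of Scd1 went from 0.42 to 0.09 and that of Fasn from 0.52 to 0.12 on the log2 scale, with log2 fold changes of 0.09 and 0.20. The cosine fit called Pnpla3, Acly, Srebf1 and Thrsp in CON kidneys, 4 of 9 against 4.1% of all genes, and 0 of 9 with the covariate, against 2.21%. In SD kidneys it called Srebf1 alone, against 1.94% of all genes, and Srebf1, Acaca, Acly, Fasn and Pnpla3 with the covariate, against 2.84%. JTK_CYCLE called 0 of 9 in either, with 0.158% of all genes called in CON and 0% in SD, and 0 of 9 in forebrain and cerebellum, with 0% of all genes called. The cosine fit called 0 of 9 there as well, with 0.103% of all genes in CON and 0.00447% in SD forebrains and 0.00465% in CON and 0.0981% in SD cerebella.

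**Figure D5:**
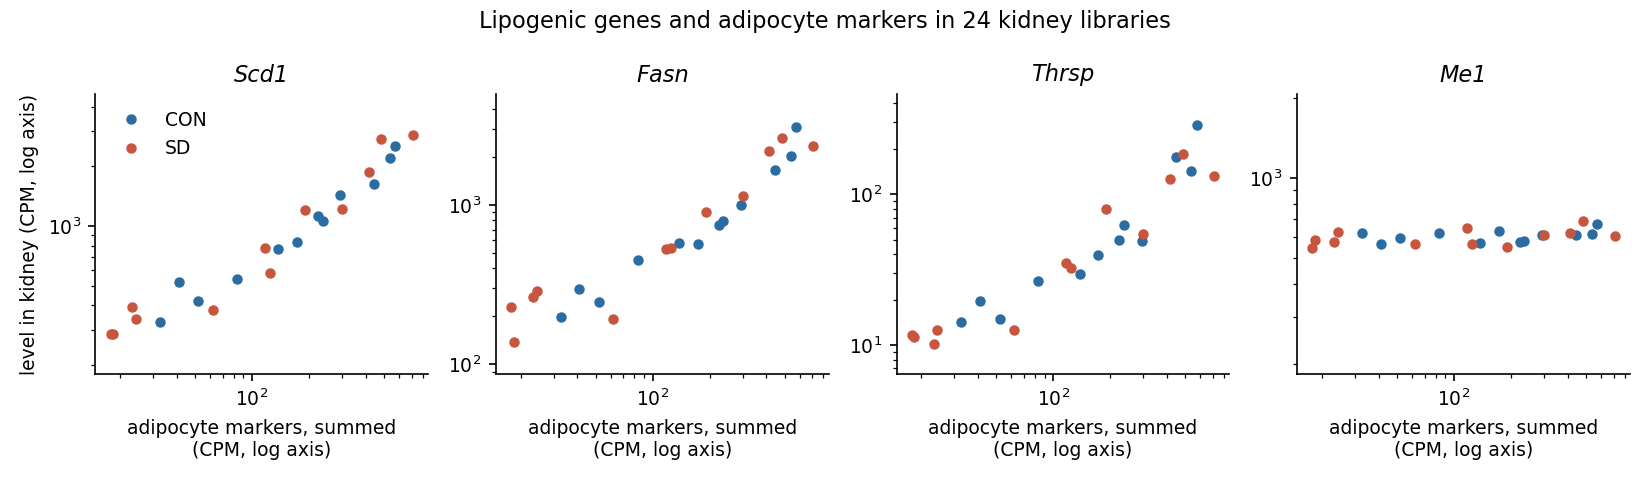
Level of Scd1, Fasn, Thrsp and Me1 in the 24 kidney libraries in CPM (vertical log axes) against the summed CPM of 7 adipocyte markers (horizontal log axis), CON in blue and SD in red. The first 3 genes climb with the markers in both conditions, and Me1 stays between 547 and 692 CPM.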

How the data were processed

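RNA-seq was performed on 96 libraries of stranded, rRNA-depleted total RNA, with 2 for each of 48 groups taken from the sample titles. Per the study's methods and processing notes, the authors trimmed reads with Trim Galore 0.6.4, aligned them with HISAT2 2.1.0 to GRCm38, filtered by mapping quality with Samtools 1.9, and deposited raw counts per gene from featureCounts 1.6.4, assigned by strand. Of 54833 features, 49326 were paired with a symbol.

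From these counts, CPM was the count divided by the library total, and fold changes were fitted with edgeR 4.0.16 (TMM scaling, filterByExpr, quasi-likelihood test, Benjamini-Hochberg adjustment over all genes tested, threshold 0.05) in R 4.3.3, with condition and time in the model. Each liver fit used 24 libraries, and tests between tissues used 48 or 96, with no term for tissues that may share a mouse. Rhythm was tested with JTK_CYCLE on CPM at a period of 24 h (Python 3.11.15, scipy 1.17.1). Alternatives were DESeq2 1.42.0, library totals alone, no filter, a cosine fit in edgeR, the replicate number as a block, and leaving out each library. The scripts were tested on simulated data. Depth gives the counting precision; counts were not weighted further. Markers and promoter windows (RefSeq, GRCm38.p6) were used as descriptions.

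The genes, the pathway and marker lists and the tests were chosen with earlier results of these data known. Named were all 9 genes, the members of the lists that passed the test in the liver, and those among the 5 genes most like the mean profile that are reported; 2 genes of the lists are not reported here. Other genes, among them Mlxipl, Taldo1 and Stard4, were named after their values were seen.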

Additional observations from a re-analysis of the deposited data

How the results depend on the processing

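The fall of Scd1 and Pnpla3 in the liver was called in each of the 24 fits that left out 1 library, with log2 fold changes from -0.55 to -0.40 and from -1.46 to -1.16. The number of the 9 genes called on average over time was 2 to 4 in those fits, and 4 with library totals alone or with no filter on low counts, where Fasn and Me1 were added. Library totals alone called 3766 of all 19708 genes lower, and no filter 1996 of 32589. Fasn passed without CON CT8 replicate 2, SD CT20 replicate 2 or SD CT24 replicate 2, and Me1 without CON CT8 replicate 2. Thrsp turned to -0.061 and Mbtps1 to -0.027 with library totals alone, and with 1 library left out Thrsp ran from -0.019 to 0.18, below 0 without SD CT12 replicate 2 (-0.0047) or SD CT24 replicate 2 (-0.019). At single times DESeq2 called 3 pairs of gene and time and the fit with no filter 22. Of all 32589 genes the fit with no filter called from 330 at CT12 to 1102 at CT24. Over the 6 times together DESeq2 called 3 genes, library totals 2, no filter 9, and leaving out 1 library 0 to 2. Of all genes DESeq2 called 2017 and library totals 1151 of 19708, and no filter 2873 of 32589. The test of a rhythm difference called 5 with no filter, where it called 409 of all 32589 genes. The difference between liver and other tissues was called for 1 comparison in DESeq2, 5 with library totals, 2 without the kidney libraries, and 0 to 2 with 1 library left out, in fits that kept the dispersions of all 96 libraries. Against kidney, forebrain and cerebellum, DESeq2 called 2060, 2855 and 1680 of 27324 genes, and library totals 2951, 2414 and 2375. In CON livers the cosine fit called 2 genes, and 1 to 3 with 1 library left out. In SD livers JTK_CYCLE called 0 with TMM-scaled CPM and 0 with no filter, and the cosine fit called 6, or 4 to 7 with 1 library left out. In the other tissues the cosine fit called 5, of which 4 were in CON kidneys and 1 in SD kidneys. With the adipocyte covariate it also called 5, but 0 in CON kidneys and 5 in SD kidneys. Between tissues 46 to 48 pairs were called with 1 library left out. The cause of these shifts was not tested.

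The replicate numbers were not taken as pairs, since in no tissue did the deviations of same-numbered CON and SD libraries correlate above 0.1 at every time: they ran from -0.067 to 0.13 in the liver (1 of 6 times over 0.1), -0.052 to 0.28 in the kidney (3), -0.24 to 0.40 in the forebrain (2) and -0.32 to 0.12 in the cerebellum (1). With the replicate number as a block the liver kept 2 calls, Mbtps1 missed the threshold (log2 fold change 0.11), and the kidney, forebrain and cerebellum had 0.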
